A study of Mus musculus with 4 samples.

Results

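The cells described here are the germ cells of the E12.5 XX mouse gonad, called proliferating oogonia in the working label. They were chosen by their own transcripts. A cell was taken when at least 3 of the 6 germ cell genes Dazl, Ddx4, Dnd1, Mael, Dppa5a and Mov10l1 had a value above 0 and the erythroid gene Alas2 was at 0. This rule found 668 cells among the 4842 cells of the E12.5 library (13.8%, exact Clopper-Pearson 95% interval 12.8 to 14.8) and among the 19387 cells of the whole series. They are set against 3983 E12.5 comparison cells, in which at most 1 of the 6 genes was above 0 and Alas2 was at 0. Another 101 cells with 2 of the 6 genes, 17 cells with at least 3 of them and Alas2, and the remaining cells with Alas2 stood in neither group.

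Primordial germ cells migrate to the genital ridge and settle among somatic cells that will form the supporting and interstitial lineages. In an XX gonad the settled germ cells are called oogonia, and they divide by mitosis in interconnected cysts before they enter meiosis. During this mitotic phase they express pluripotency genes, lose most of their DNA methylation, reactivate the silent X chromosome and switch on germline genes that methylated promoters keep off elsewhere. Retinoic acid and BMP signals from the surrounding somatic cells are known to act on the switch to meiosis, which begins with the gatekeeper gene Stra8.

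Gonads came from C57BL/6 embryos labelled XX, taken daily between E11.5 and E14.5, and were dissociated and captured as single cells by droplet barcoding with 3′ counting of unique molecular identifiers (UMIs, each standing for 1 captured mRNA molecule). The labels give neither the number of embryos pooled nor a transgene, and mention no sort. There was 1 library per stage, so stage and library cannot be told apart and everything below is a description without tests. The same rule found 242 cells in the E11.5 library, 783 in the E13.5 library and 2390 in the E14.5 library, and these are given beside the E12.5 cells.

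Levels below are UMIs of a gene per 1000000 UMIs, summed over all cells of a group (CPM), and intervals are exact 95% intervals that cover counting error only. The E12.5 germ cells held 19804920 UMIs, with a median of 27927 UMIs and 4636 detected genes per cell. The comparison cells held 54701790 UMIs, with a median of 12179 UMIs and 3344 genes, so more UMIs were captured per germ cell. The rule asks for detected genes and so itself favours cells with many UMIs. RNA content per cell was not measured. Mitochondrial UMIs made up 2.96% in the median germ cell and 3.32% in the median comparison cell. Shares of cells with a UMI were therefore read after each cell had been thinned at random to 5000 UMIs. In the E12.5 library 94 barcodes also occurred in another library. A doublet caller marked 28 of the 668 germ cells (4.19%) and 88 of all E12.5 cells (1.82%), and marked cells were kept. Before E14.5 no germ cell or comparison cell held a UMI of the Y-linked genes Ddx3y, Eif2s3y, Kdm5d or Uty (0 of 668 E12.5 germ cells, which at 3 counts of the total allows up to 0.449% of cells with a UMI, and sets no limit on cells expressing the genes). The library labelled E14.5 XX goes against its label, since 17.8% of its germ cells and 21.9% of its comparison cells held a Y-linked UMI, and E14.5 values below carry that limit.

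The 6 genes of the rule chose the cells, and their values describe that choice. Dppa5a, a small RNA-binding protein of pluripotent cells, stood at 2257 CPM in the germ cells and 12.9 CPM in the comparison cells. It was detected in all 668 cells, with a median of 58 UMIs per cell. Dazl, which promotes translation of germ cell mRNAs, stood at 275 CPM and was found in 93.3% of the cells, with a median of 7 UMIs and a highest value of 62. Dnd1, a partner of NANOS proteins that protects germ cells, reached 156 CPM and was found in 96.1%. The helicase gene Ddx4 (Vasa) stood at 90.7 CPM and 85.8% of cells, and the piRNA pathway genes Mael and Mov10l1 at 38.8 CPM (57.9%) and 26.8 CPM (49.9%). The last 2 genes had a median of 1 and 0 UMIs per cell, and the rule read after thinning to 5000 UMIs found 400 cells (8.26%).

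Across the 4 stages the rule genes moved in different directions. From E11.5 to E14.5 Dazl stood at 64.1, 275, 497 and 868 CPM, Ddx4 at 48.6, 90.7, 136 and 221 CPM, and Mael at 20.6, 38.8, 96.7 and 232 CPM. Dppa5a ran the other way, with 3018, 2257, 1213 and 755 CPM. Dnd1 was nearly level over the first 3 stages, with 159, 156, 147 and 94.7 CPM. The E12.5 cells thus held more Dazl and less Dppa5a than the E11.5 cells.

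RefSeq gave a promoter for 4 of the 6 rule genes (Mael, Ddx4, Mov10l1 and Dazl; GRCm38.p6, 250 bases before to 50 after the start site). The E-box word CACGTG, which is the same on both strands and is bound by MAX heterodimers, stood in 3 of these 4, against 7.15% of the 32851 promoters in the table and 10.96% of the 6267 promoters of genes counted in the comparison below. The matching stretches are shown because the Mael, Ddx4 and Mov10l1 transcripts defined the cells together; each holds up to 27 bases on either side of the E-box within the promoter upstream of the start site, is given on the gene's own strand and has the E-box in capitals. A match is a word in a window and says nothing of binding. The E2F word TCCCGC (either strand) stood in 2 of the 4 promoters, 37.6% of the promoters of counted genes and 19.98% of all. Of the 30 genes with the largest ratios, described below, 21 had a promoter, some more than 1, which gave 29 promoters. CACGTG stood in 4 of the 29 (13.8%) and TCCCGC in 6 (20.7%), so the share of CACGTG was near that of all counted genes. Overlapping promoters of Stk31 that hold the same E-box are counted separately among the 4.
Mael, chr1:166238935-166238994, minus strand, E-box 223 bases before the start: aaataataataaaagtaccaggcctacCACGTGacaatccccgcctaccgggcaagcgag
Ddx4, chr13:112652311-112652366, minus strand, E-box 29 bases before the start: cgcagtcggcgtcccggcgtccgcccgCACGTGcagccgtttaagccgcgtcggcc
Mov10l1, chr15:88982744-88982780, plus strand, E-box 246 bases before the start: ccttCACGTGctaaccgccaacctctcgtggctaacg

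Genes encoding MAX and its partners in the complex that represses germline promoters were read in the cells themselves. Max stood at 59.6 CPM in germ cells and 42.3 CPM in comparison cells, Mga at 60.0 and 56.7 CPM, Pcgf6 at 48.1 and 21.8 CPM, and E2f6 at 11.7 and 30.6 CPM. None of the 14 listed promoter repressor genes was past a 4-fold difference in either direction, and their median log2 ratio was -0.04. In the comparison described below, 4.24% of all counted genes were higher and 14.6% lower, so most genes were not called.

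Germ cell genes outside the rule followed the rule closely. Pou5f1, a core pluripotency factor, stood at 0.79, 1.24, 35.9, 150, 159, 137 and 143 CPM in cells with 0, 1, 2, 3, 4, 5 and 6 of the 6 genes. Dppa3 (Stella) stood at 3.76, 4.49, 257, 722, 744, 747 and 759 CPM over the same classes. Smc1b, a cohesin subunit of meiosis, went from 1.20 CPM at 0 genes to 17.7 at 2, 91.3 at 3 and 171 at 6. All 3 were low with 0 or 1 gene; Pou5f1 and Dppa3 were near their level at 6 genes already with 3, while Smc1b was not. Just inside the threshold lay 65 cells with 3 genes and a median of 24851 UMIs, and just outside it 101 cells with 2 genes and a median of 14307 UMIs. In the latter the somatic gene Wnt4 stood at 147 CPM, near the 154 CPM of cells with 0 genes, against 16.2 CPM in cells with 3. The interstitial gene Nr2f2 stood at 46.8 CPM there, between the 105.6 CPM of cells with 0 genes and the 12.02 CPM of cells with 3. These are sums over 101 cells and do not show whether single cells held both kinds of transcript.

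**Figure D1:**
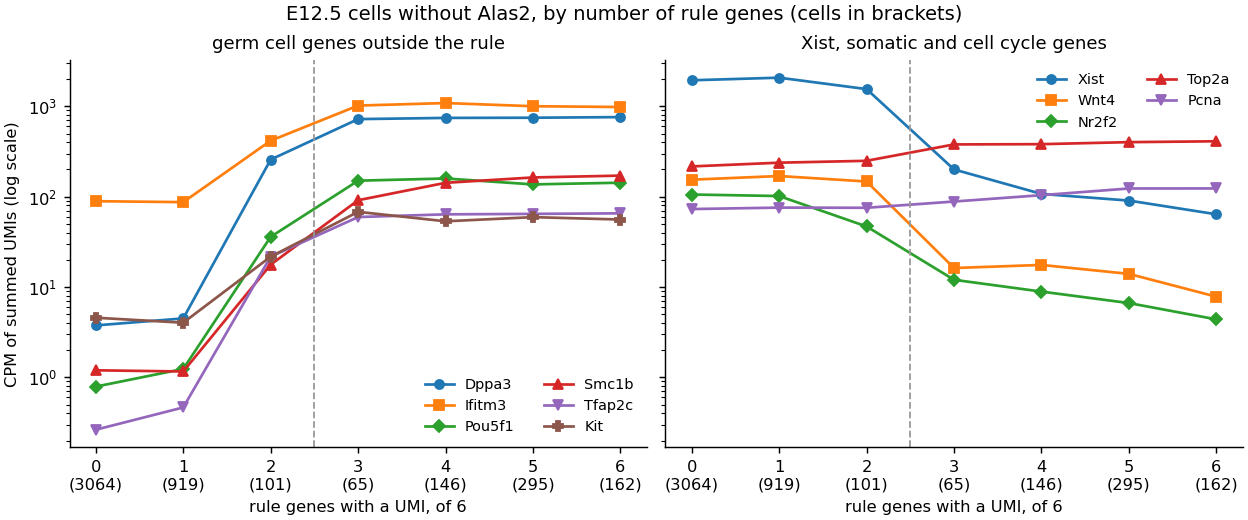
CPM of summed UMIs (log axis) in E12.5 cells without Alas2, by the number of rule genes with a UMI, for genes outside the rule. Left, germ cell genes; right, Xist, somatic and cell cycle genes; the dashed line is the threshold of the rule and cell numbers stand in brackets. Pou5f1 goes from 0.79 CPM at 0 genes to 150 CPM at 3 genes, while Wnt4 goes from 154 to 16.2 CPM.

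The germ cells were next described gene by gene against the comparison cells. A gene was counted when it had at least 50 UMIs over both groups and at least 20 CPM in the higher group, and was called higher or lower when the ratio of CPM was at least 4 and the intervals did not overlap. Of 6348 genes counted, 269 were higher in the germ cells (4.24%) and 927 were lower (14.6%). The median log2 ratio of all counted genes was -0.18, and scaling by that median adds 0.18 to each log2 ratio below. Since the cells were chosen on germ cell transcripts, this contrast describes the choice and supports nothing further. The comparison cells are a mixture of several somatic types, so a lower gene can be a gene of any of them.

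The 30 genes with the largest ratios included regulators of pluripotent and germ cells. Zfp42 (Rex1) stood at 136 against 0.42 CPM, Sox2 at 124 against 0.55 CPM, and Tfap2c, a factor needed to specify germ cells, at 64.1 against 0.31 CPM. Genes of the X-linked Rhox homeobox cluster took 5 of the 30 places. Rhox9 stood at 905 CPM and Rhox6 at 615 CPM, against 4.30 and 2.83 CPM in comparison cells, and Rhox2a, Rhox2h and Rhox1 at 55.1, 26.6 and 37.0 CPM. The near-identical copies of this cluster may share reads, so the split between Rhox2 copies is uncertain. Cpeb1, a regulator of mRNA polyadenylation, stood at 28.8 against 0.15 CPM, and Stk31 at 91.5 against 0.49 CPM. The cell cycle inhibitor gene Cdkn2a (p16 and Arf) was among the 30 as well, at 23.6 against 0.07 CPM (4 UMIs over all comparison cells), and was detected in 11.7% of germ cells after thinning. The 15 lowest ratios belonged to genes of other cells, among them the endothelial genes Emcn (1.06 against 33.4 CPM) and Cd34 (1.06 against 32.3 CPM), the platelet gene Pf4 (0.86 against 44.7 CPM) and the neutrophil gene S100a8 (0.45 against 21.7 CPM).

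**Figure D2:**
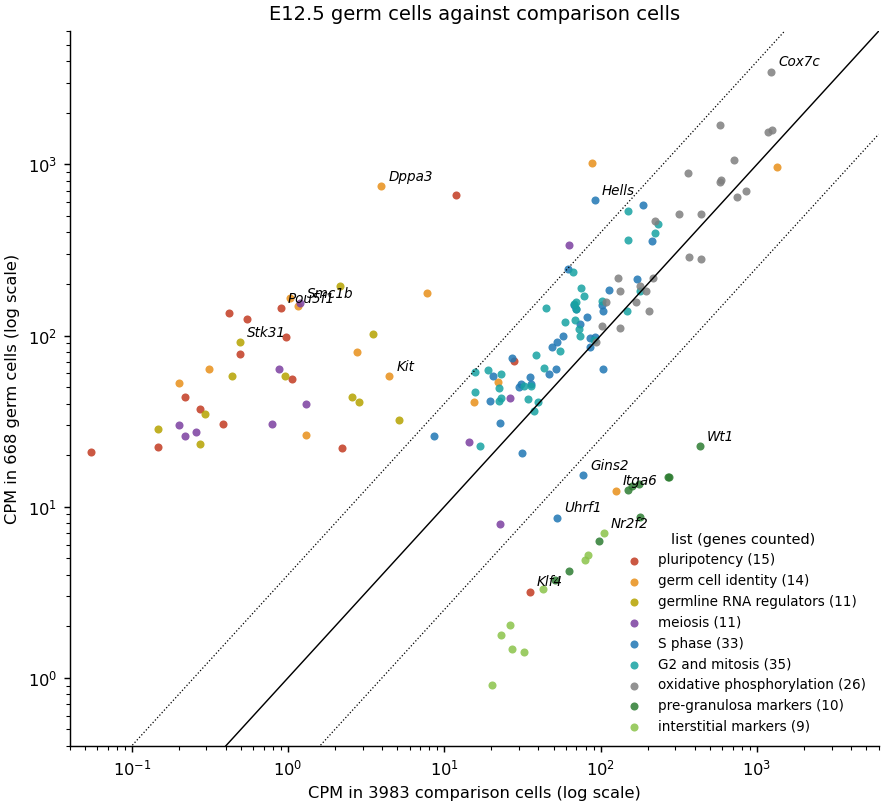
CPM in the 668 E12.5 germ cells (y) against CPM in the 3983 comparison cells (x), both on log axes, for the counted genes of 9 lists, with the rule genes left out. The solid line marks equal levels and the dotted lines a ratio of 4. The 26 oxidative phosphorylation genes lie between the dotted lines, and 13 of 15 pluripotency genes lie above the upper line. A gene nearly absent from comparison cells could only be counted through germ cells, so its side of the line is a description.

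The list of germ cell identity genes held 17 genes. Of these 10 were higher, 1 was lower, 3 were counted and not called and 3 fell below the minimums. Over all counted genes 4.24% were higher and 14.6% lower. Genes nearly absent from comparison cells could only be counted through their level in germ cells, so the 10 are a description. Dppa3 stood at 748 against 3.93 CPM and was detected in 95.5% of the germ cells after thinning (93.7 to 96.9) and in 2.23% of thinned comparison cells. Sall4, a zinc finger factor, reached 167 against 1.02 CPM, and Prdm1 (Blimp1), a repressor needed for germ cell specification, 26.2 against 1.30 CPM. Kit, the receptor through which somatic KIT ligand keeps germ cells alive, stood at 57.9 against 4.44 CPM, while its ligand gene Kitl stood at 14.8 against 274 CPM. Ifitm3, a membrane protein of early germ cells, was at 1020 against 88.6 CPM, but its neighbour Ifitm1 was at 971 against 1348 CPM and was not called. Itga6, an integrin chain, was the lower gene of the list, at 12.4 against 125 CPM. Cxcr4, the receptor that guides migrating germ cells, was at 2.58 CPM and under the minimum.

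Among 25 germline RNA regulators, 11 were higher, 0 were lower and 14 fell below the minimums, beside 4.24% higher and 14.6% lower of all counted genes. A gene absent from somatic cells could only be counted through its level in germ cells, so the 11 had to be higher and their number is a description. Fkbp6, a chaperone partner of the piRNA pathway, had the highest level of the list at 196 CPM, against 2.16 CPM in comparison cells. Elavl2 stood at 102 CPM, Stk31 at 91.5 CPM, the tudor gene Rnf17 at 58.2 CPM and Lin28a, which blocks let-7 processing, at 57.7 CPM. Nanos3, which keeps migrating germ cells from dying, stood at 32.2 against 5.10 CPM. The PIWI genes themselves were low. Piwil2 stood at 18.5 CPM, Piwil4 at 0.76 CPM and Piwil1 at 0.45 CPM, and Nanos2, the marker of male fate, had 0 UMIs (0 of 668 cells, which at 3 counts of the total allows a share of cells with a UMI of up to 0.449%).

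Of 17 pluripotency genes, 13 were higher, 1 was lower, 1 was counted and not called and 2 fell below the minimums. Here too, genes nearly absent from comparison cells could only be counted through germ cells. The 13 are therefore a description, beside 4.24% of all counted genes. The 17 pluripotency genes summed to 1571 CPM against 82.9 CPM (log2 ratio 4.24, 4.200 to 4.290). Utf1, a chromatin factor of embryonic stem cells, was the most abundant of them at 665 CPM, with a UMI in 94.0% of thinned cells. Pou5f1 stood at 144 against 0.90 CPM and was detected in 47.8% of the germ cells after thinning (43.9 to 51.6), or 94.8% without thinning, against 0.53% of thinned comparison cells. Sox2 had nearly the same share, 47.5%, and Nanog a lower one, 17.5%, at 37.0 CPM. Esrrb, Tfcp2l1 and Klf5, factors of the naive state, stood at 22.3, 22.1 and 55.4 CPM. Klf4 was lower, at 3.18 against 35.2 CPM, and Klf2 stood at 70.7 against 27.7 CPM without being called. The naive factors were therefore not all present at like levels.

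In the label these cells are called proliferating, and the cell cycle lists were read to check it. Of the 36 genes in the G2 and mitosis list 35 were counted. None of them was called, beside 4.24% higher and 14.6% lower of all counted genes. Of the 35, 33 were above the comparison cells and 2 below. The summed list stood at 4802 CPM in germ cells and 2502 CPM in comparison cells (log2 ratio 0.94, 0.93 to 0.95), with a median gene at 0.91, against -0.18 over all counted genes. Cenpf, a kinetochore protein, stood at 535 against 150 CPM, Ccnb2 at 235 against 66.9 CPM, Ccnb1 at 189 against 74.4 CPM and Top2a at 397 against 221 CPM. Cdk1 was nearly equal, at 93.6 against 90.4 CPM, and so was Birc5, at 183 against 179 CPM. Of the 36 S phase genes, 33 were counted, 28 of them above and 5 below the comparison cells, and the sum stood at 4299 against 2383 CPM (log2 ratio 0.85, 0.84 to 0.86). The called S phase genes were Hells, Gins2 and Uhrf1, beside 4.24% higher and 14.6% lower of all counted genes. Hells, a chromatin remodeller linked to DNA methylation, was higher at 616 against 91.8 CPM. Gins2 (15.2 against 76.98 CPM) and Uhrf1 (8.63 against 52.5 CPM) were lower.

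The summed values hide a larger difference between single cells. Of 5000 thinned UMIs, the G2 and mitosis list took a median of 22 in germ cells, with 10% of cells at or below 12 and a highest value of 54. In comparison cells the median was 2 and the highest value 108. At least 10 UMIs were found in 640 germ cells (95.8%) and in 26.9% of comparison cells, and at most 2 UMIs in 2 germ cells (0.30%) and 53.6% of comparison cells. Nearly every germ cell thus carried mitotic transcripts, while the comparison cells held a large class with almost none and some cells with more than any germ cell. The same count of at least 10 UMIs was reached by 88.0% of germ cells a day earlier (E11.5), and by 88.5% and 84.9% at the later stages. The S phase list had a median of 21 UMIs in germ cells and 9 in comparison cells. Over the 668 germ cells the S phase and G2 and mitosis sums had a Pearson r of -0.37 and a Spearman rho of -0.39, and over the comparison cells 0.17 and 0.39. These are correlations across cells of 1 library that share a fixed total of UMIs, given as a description.

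**Figure D3:**
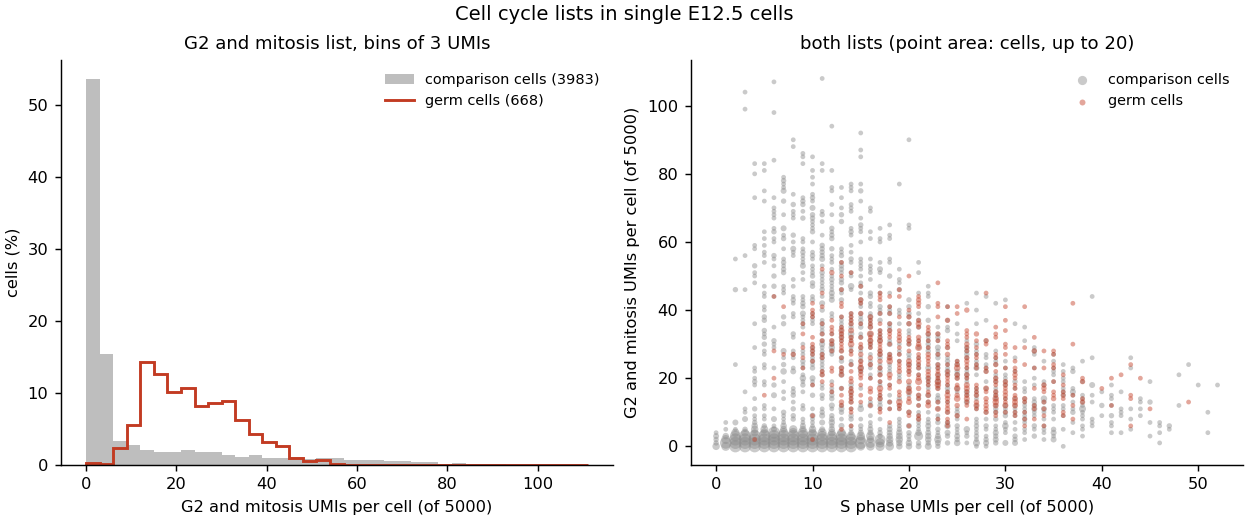
Left, percentage of E12.5 cells by UMIs of the G2 and mitosis list among 5000 thinned UMIs, in bins of 3, for germ cells (line) and comparison cells (filled). Right, UMIs of the S phase list (x) and of the G2 and mitosis list (y) per cell, with point area by number of cells. The bin from 0 to 2 UMIs holds 53.6% of the comparison cells and 0.30% of the germ cells.

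Ordered into 4 classes of 167 cells by their G2 and mitosis UMIs (2 to 15, 15 to 22, 22 to 30 and 30 to 54), the germ cells were read for cell cycle genes and for a few germ cell genes. Ccnb1 stood at 83.4, 118, 196 and 332 CPM over the classes, and Cdc20 at 52.7, 95.6, 165 and 237 CPM; both belong to the list that ordered the cells. Genes outside that list ran the other way. The replication histone gene Hist1h2ap stood at 1327, 1137, 558 and 254 CPM, Rrm2 at 140, 121, 83.4 and 53.0 CPM, and Ccne1 at 82.7, 72.8, 44.3 and 36.8 CPM. Pou5f1 stood at 150, 145, 144 and 138 CPM, Smc1b at 142, 159, 168 and 150 CPM, and Dppa3 at 737, 734, 705 and 807 CPM. These 3 germ cell genes varied less over the classes than the histone gene did.

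Genes that control entry into the cycle were read next. Of 16 listed G1 cyclin and inhibitor genes, 1 was higher and 4 were lower, with 6 counted and not called. All counted genes had shares of 4.24% higher and 14.6% lower. Cyclin D2 (Ccnd2) stood at 14.8 against 301 CPM and cyclin D1 (Ccnd1) at 6.36 against 43.2 CPM, while cyclin D3 (Ccnd3) stood at 169 against 140 CPM and was not called. The inhibitor genes Cdkn1b (p27) and Cdkn1c (p57) stood at 9.69 against 99.4 CPM and 98.1 against 1930 CPM. The higher gene was Cdkn2a, described above. Cdk4 stood at 411 against 726 CPM. Within germ cells Ccnd3 was the D-type cyclin with the highest level, and the range of its 4 class values above was 164 to 173 CPM.

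Meiosis genes were already read in part. Of 31 genes, 8 were higher, 0 were lower, 3 were counted and not called and 20 fell below the minimums. A meiosis gene nearly absent from comparison cells could only be counted through germ cells. The 8 are therefore a description, beside 4.24% of all counted genes. The sum was 880 CPM against 170 CPM (log2 ratio 2.37, 2.34 to 2.41). The synaptonemal complex gene Syce2 alone made up 337 CPM, and stood at 62.5 CPM in comparison cells. The cohesin genes Smc1b and Stag3 stood at 155 and 30.5 CPM, against 1.19 and 0.79 CPM. Smc1b was detected in 49.6% of the germ cells after thinning and in 0.48% of thinned comparison cells. Zglp1, a GATA-like factor that promotes the oogenic programme, stood at 63.6 against 0.88 CPM, Rec114 at 39.7, Hormad1 at 29.8, Syce1 at 27.3 and Sycp3 at 25.8 CPM. Rec8, the cohesin kleisin of meiosis, was not higher, with 7.88 against 22.8 CPM. Some other meiosis genes were at or near 0: Mei1 and Rad21l had 0 UMIs, Prdm9 stood at 0.10 CPM, Msh4 at 0.40 CPM and Spo11 at 1.82 CPM.

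Stra8 was found in 19 of the 668 germ cells (2.84% without thinning, 1.05% after it), with at most 5 UMIs in a cell, and in 1 of 3983 comparison cells. In the 19 cells the meiosis list without Stra8 stood at 1215 CPM (1125 to 1311), against 869 CPM (856 to 882) in the other 649. Their pluripotency list stood at 1246 CPM (1155 to 1342), against 1581 CPM (1563 to 1598), and their G2 and mitosis list at 4986 against 4796 CPM, with overlapping intervals. Both groups had similar depth, with medians of 27159 and 27954 UMIs. The cells were sorted on 1 meiosis gene and the intervals cover counting error, so this is a description of 19 cells. Meioc, a partner in meiotic RNA control, stood at 1.06 CPM and was found in 18 cells.

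Across stages the meiosis list stood at 626, 880, 1361 and 5109 CPM in the germ cells, and the pluripotency list at 1711, 1571, 1181 and 613 CPM. The G2 and mitosis list was highest at E12.5, with 3737, 4802, 4154 and 3909 CPM, and the S phase list stood at 3860, 4299, 4475 and 5214 CPM. In the comparison cells the G2 and mitosis list stood at 2284, 2502, 1660 and 3139 CPM, so the libraries also differed outside the germ cells. The E12.5 germ cells thus lay between their neighbours in meiosis and pluripotency genes and above them in mitosis genes.

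Between E11.5 and E12.5 few genes of the germ cells passed the rule of size. Of 4905 genes counted, 2 were higher at E12.5 (0.0408%) and 2 were lower (0.0408%), and 1 of the 4 was the rule gene Dazl. The linker histone gene Hist1h1b stood at 29.8 CPM in the E11.5 cells, 152 CPM in the E12.5 cells, then 41.1 and 73.8 CPM. The comparison cells moved alongside, with 14.2, 102, 15.1 and 69.4 CPM, and the related Hist1h1e did the same, with 29.8, 117, 37.0 and 92.4 CPM in germ cells and 13.48, 85.4, 16.9 and 66.7 CPM in comparison cells. The part of the library in these histone values was not tested. The lower genes were the embryonic globin Hbb-bh1, at 49.5 and 9.09 CPM in germ cells and 53.4 and 10.0 CPM in comparison cells, and Arhgef40, at 25.3 and 5.60 CPM in germ cells.

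With a ratio of at least 2 in place of 4, 104 genes were higher at E12.5 than at E11.5 (2.12%) and 12 were lower (0.245%). Of the 104, 100 could be counted in comparison cells, where 30 were also at least 2-fold higher. Germline genes were among the 104. Hormad1 stood at 7.87 and 29.8 CPM, Smc1b at 59.9 and 155 CPM, Zglp1 at 25.4 and 63.6 CPM, Rnf17 at 19.7 and 58.2 CPM, and Stk31 at 40.4 and 91.5 CPM. In comparison cells these 5 genes stayed at or under 1.19 CPM at both stages, although Zglp1 was also at least 2-fold higher there. Parg, Casc5, Aspm and Igf2 were higher too, and so they were in comparison cells, where Igf2 went from 114 to 408 CPM.

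The next interval, from E12.5 to E13.5, shares the E12.5 cells with the one before. Of 5148 genes counted, 4 were higher at E13.5 (0.0777%) and 0 were lower. These were Stra8, at 1.82 and 129 CPM, Rec8, at 7.88 and 43.98 CPM, Cited1, a transcriptional co-regulator, at 4.04 and 20.2 CPM, and Ccnd1, at 6.36 and 30.03 CPM. Stra8 had 0 UMIs in germ cells at E11.5. In comparison cells Rec8 stood at 22.8 and 21.9 CPM and Ccnd1 at 43.2 and 30.03 CPM, while Cited1 stood at 1.46 and 2.83 CPM, and Stra8 was found in 1 comparison cell at E12.5 and in 47 at E13.5. The rule of size called no gene lower, but with a ratio of at least 2 there were 45 genes higher (0.874%) and 26 lower (0.505%). Sycp1, the transverse filament of the synaptonemal complex, stood at 17.5 and 61.0 CPM, and Cdx2, a homeobox factor, at 16.7 and 35.7 CPM. Among the lower genes, Hmgn5, a nucleosome-binding protein, stood at 325 and 109 CPM, L1td1 at 97.7 and 45.9 CPM, Gtsf1l at 28.5 and 10.3 CPM, the glycolytic gene Pfkp at 22.9 and 10.1 CPM, and Apoe at 235.7 and 111.7 CPM. Of the 26, 4 were also at least 2-fold lower in comparison cells, among them Hist1h1b and Hist1h1e.

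**Figure D4:**
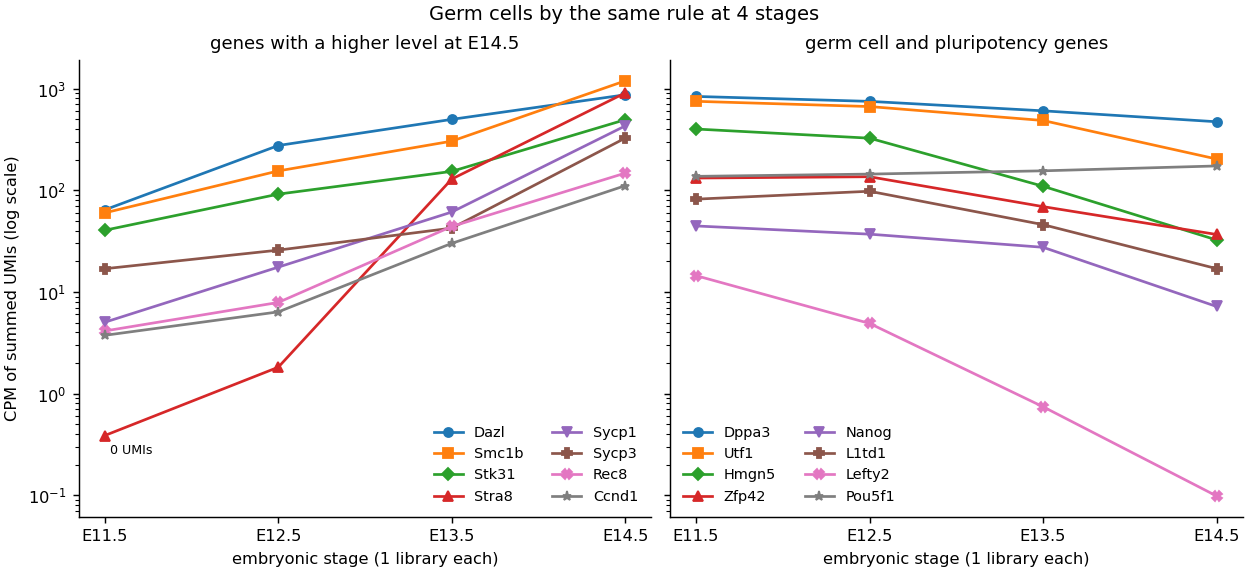
CPM of summed UMIs (log axis) in germ cells chosen by the same rule at 4 stages, with 1 library each (242, 668, 783 and 2390 cells). Left, genes with a higher level at E14.5; right, germ cell and pluripotency genes. Stra8 goes from 1.82 CPM at E12.5 to 129 CPM at E13.5 (its E11.5 point, 0 UMIs, is drawn at a limit of 3 UMIs), while Pou5f1 stays between 137 and 173 CPM.

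Signals that reach these cells were read on the receiving side. Of 18 listed retinoic acid genes, 4 were lower in germ cells and 4 were counted and not called. The rest were below the minimums or not in the table. Among all counted genes 4.24% were higher and 14.6% lower. The synthesis genes Aldh1a2 and Aldh1a1 stood at 3.03 against 61.6 CPM and 1.36 against 22.3 CPM. The receptor gene Rara stood at 14.04 against 32.2 CPM and Rxrb at 26.9 against 31.7 CPM, neither called, and Rarg at 10.5 against 4.26 CPM. Crabp1, which binds retinoic acid in the cytoplasm, stood at 37.6 against 11.8 CPM, and Crabp2 at 6.21 against 26.1 CPM. Of 23 BMP pathway genes, 13 were counted, of which 2 were higher and 4 were lower, beside the same 4.24% and 14.6% of all counted genes. The BMP-responsive factors Msx2 and Gata2 stood at 42.4 against 6.47 CPM and 33.2 against 2.61 CPM, and Msx1 at 13.3 against 76.9 CPM. The ligand gene Bmp2 was lower, at 2.32 against 63.5 CPM, and the receptor gene Bmpr1a stood at 21.4 against 37.3 CPM. Gata2 in germ cells stood at 22.7, 33.2, 62.1 and 58.4 CPM over the 4 stages and Msx1 at 8.77, 13.3, 34.03 and 86.6 CPM.

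None of 9 listed male germ cell genes met the minimums at E12.5. Their sum stood at 45.5 CPM in the E11.5 germ cells and 29.5 CPM in the E12.5 germ cells, against 2.19 CPM in the E12.5 comparison cells. The Nodal targets Lefty1 and Lefty2 stood at 10.4 and 14.4 CPM in the E11.5 library, 4.19 and 4.90 CPM in the E12.5 library and 1.73 and 0.74 CPM in the E13.5 library. Nodal itself stood at 3.87, 2.42 and 1.83 CPM over these stages. Dnmt3l had 0 UMIs at E12.5.

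Among 13 DNA methylation genes, 1 was higher and 3 were lower, with 5 counted and not called. The shares over all counted genes were 4.24% higher and 14.6% lower. Uhrf1, which brings the maintenance methyltransferase to replicated DNA, stood at 8.63 CPM in germ cells and was detected in 4.49% of them after thinning, against 19.1% of comparison cells. The methyltransferase gene Dnmt1 stood at 137 against 66.2 CPM and was not called. The de novo enzymes were low, with Dnmt3a at 21.8 against 84.2 CPM and Dnmt3b at 2.52 against 15.05 CPM. Of the demethylating dioxygenases, Tet1 was higher at 113 against 22.3 CPM, while Tet2 stood at 7.93 and Tet3 at 2.83 CPM. In germ cells Tet1 stood at 51.9, 113, 74.8 and 39.9 CPM over the stages, highest at E12.5, and Uhrf1 at 7.10, 8.63, 19.4 and 44.1 CPM. Zfp57, which guards imprints, stood at 1.72 against 27.04 CPM.

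Imprinted genes, expressed from 1 parental allele in somatic cells, split unevenly. Of 25 listed, 2 were higher, 13 were lower and 4 were counted and not called, beside 4.24% higher and 14.6% lower of all counted genes. Phlda2 stood at 659 against 6.98 CPM, detected in 89.7% of germ cells after thinning and 3.44% of thinned comparison cells. Snrpn stood at 117 against 29.3 CPM. The lower genes included H19 (112 against 1367 CPM), Mest (28.7 against 602 CPM), Igf2 (30.7 against 408 CPM), Meg3 (43.4 against 546 CPM) and Dlk1 (8.43 against 168 CPM). Counts of a gene do not separate the alleles. Phlda2 stood at 414, 659, 609 and 409 CPM over the 4 stages.

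Summed levels of energy genes differed by pathway. None of 26 nuclear genes of oxidative phosphorylation was called, beside 4.24% higher and 14.6% lower of all counted genes. Their sum had a log2 ratio of 0.56 (0.56 to 0.57), with Cox7c at 3485 against 1233 CPM. Of 20 glycolysis genes, 15 were counted, 2 of them higher and 3 lower, beside 4.24% and 14.6% of all counted genes. The glycolysis sum had a log2 ratio of -0.90 (-0.91 to -0.89). The neuronal-type glucose transporter gene Slc2a3 and the phosphofructokinase gene Pfkp were higher, at 26.96 against 3.11 CPM and 22.9 against 3.11 CPM. Ldha, Tpi1 and Pfkl were lower, at 58.1 against 471 CPM, 44.9 against 380 CPM and 11.46 against 52.6 CPM. Over the 4 stages Pfkp stood at 31.3, 22.9, 10.1 and 3.35 CPM in germ cells.

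Of 23 apoptosis genes, 12 were counted, of which 0 were higher and 3 were lower, beside 4.24% and 14.6% of all counted genes. Bcl2, which protects many somatic cells, stood at 2.63 against 52.4 CPM, Bok at 4.39 against 42.0 CPM and Bak1 at 4.14 against 33.8 CPM. The effector Bax, which acts in germ cell death, stood at 415 against 118 CPM and was not called, and Trp53 at 204 against 154 CPM. Bax was detected in 85.6% of germ cells and 44.3% of comparison cells after thinning.

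The X chromosome was read through the share of X-linked UMIs among X-linked and autosomal UMIs, leaving out Xist and Tsix, with 692 X-linked genes. In germ cells it stood at 3.34%, 3.42%, 3.92% and 4.23% from E11.5 to E14.5. In comparison cells it stood at 3.66%, 3.65%, 3.79% and 3.66%. At E12.5 the share in germ cells (3.41 to 3.42) was thus below that in comparison cells (3.64 to 3.65), and at E13.5 above it. A median over genes with at least 50 UMIs in both groups did not cross at E13.5. From E11.5 to E14.5 the median log2 ratio of X-linked genes was -0.15, -0.29, -0.12 and 0.07. That of autosomal genes was -0.11, -0.14, -0.08 and -0.13. The summed share also depends on genes with high levels in 1 group. Over the germ cells of E12.5 the per-cell share had quartiles of 3.12% and 3.71%. Of the listed X genes, Ddx3x stood at 164 against 125 CPM, Eif2s3x at 75.7 against 68.7 CPM and Kdm5c at 34.4 against 43.1 CPM, none of them called.

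Xist, the RNA that silences an X chromosome, stood at 96.1 CPM in germ cells and 1972 CPM in comparison cells, or 4.87% of that level. The median germ cell had 1 Xist UMI and the median comparison cell 26. After thinning, 20.5% of germ cells (17.5 to 23.8) and 93.5% of comparison cells (92.7 to 94.3) had a Xist UMI. Somatic transcripts were read in the same cells. Over 28 genes, Xist and 27 counted markers of pre-granulosa, interstitial and mesothelial cells, the germ cells held 3.73% to 18.002% of the level in comparison cells, with a median of 6.16%. Wt1 stood at 22.6 against 431 CPM (5.24%), Lhx9 at 13.7 against 296 CPM (4.63%) and Amhr2 at 8.74 against 177 CPM (4.93%). Xist was itself 1 of the 28 genes, but both ends of the range belonged to markers, Krt19 (lowest) and Krt18 (highest). The Xist level lay between these ends and below the median, and the markers named here were among those nearest to it. Whether the Xist UMIs came from the germ cells themselves or from other cells was not tested. They were spread unevenly, with no UMI in 47.9% of germ cells and 76 UMIs in the highest. Cells with an Alas2 UMI had been left out of both groups, though an erythroid cell without one could remain. Globin RNA stood at nearly the same level in both groups, with 6 counted globin genes at log2 ratios of -0.18 to -0.31.

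Markers of other cell types were read as whole lists. The pre-granulosa list of 12 genes summed to 116 CPM against 1861 CPM, the interstitial list to 29.9 against 464 CPM, the mesothelial list to 66.4 against 786 CPM, the endothelial list to 98.8 against 350 CPM, the erythroid list to 525 against 613 CPM and the immune list to 10.0 against 69.7 CPM. All 12 pre-granulosa and all 12 interstitial genes were below the comparison cells, as were 10 of 12 mesothelial, 11 of 12 endothelial, 10 of 11 erythroid and 11 of 12 immune genes. Alas2 was at 0 by the rule. Of the endothelial list, Pecam1, an adhesion molecule that germ cells also carry, stood at 53.2 against 22.03 CPM.

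The spread among germ cells was read gene by gene. With each cell thinned to 9000 UMIs, 4456 genes had a mean of at least 0.2 UMIs, and the median variance over mean (Fano factor, near 1 where cells differ by sampling alone) was 1.06. At low means sampling also holds this factor near 1, so a low value does not show that cells are alike. A Fano factor of at least 2 was reached by 72 genes (1.62%). The 20 largest were led by Malat1 (17.7), Kctd14 (14.4), mt-Co3 (9.45), Cdkn1c (7.18), Xist (7.07) and Lgals7 (6.61). Among the 72 were 21 genes called lower in germ cells than in comparison cells and 7 mitochondrial genes. There were also 16 genes with symbols that start with Rpl or Rps and a number, and 3 that start with Hist. The ribosomal protein gene Rplp1 and the histone gene H3f3b were among the 72 as well. The shares of these classes among the 4456 genes are not given, so no excess is read from the numbers. Hist1h2ap, with a mean of 7.47 UMIs, had a Fano factor of 6.09, and Mt2 and Mt1, which bind metal ions, had 5.60 and 4.88. Of the lists, germline RNA regulators, identity, pluripotency and meiosis genes held no gene at 2 or above, and their highest values were Fkbp6 at 1.32, Ifitm3 at 1.98, Zfp42 at 1.53 and Sycp3 at 1.44. Among rule genes, 2 of 6 reached it, with Dppa5a at 3.91.

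Part of this spread lay in few cells. The summed supporting, interstitial and mesothelial markers were at 0 of 5000 UMIs in 57.6% of the germ cells, with a median of 0 and a highest value of 23, against a median of 16 in comparison cells. At least 8 UMIs, the 10% point of the comparison cells, were held by 17 germ cells (2.54%). In these 17 cells Xist stood at 854 CPM, Kctd14 at 726 CPM and Wt1 at 267 CPM, against 78.4, 62.4 and 16.9 CPM in the other 651. Their germ cell genes were at reduced levels, with Dppa3 at 430 against 755 CPM and Pou5f1 at 83.8 against 145 CPM. They had a median of 27023 UMIs, near that of the other cells. Whether they hold RNA of more than 1 cell was not tested. Cells of this kind made up 2.07%, 2.54%, 4.34% and 4.64% of germ cells over the 4 stages.

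The first 3 principal components of the germ cells, which took 1.27%, 1.00% and 0.826% of the variance, followed 3 contrasts. The first was led at its high end by Malat1, Xist, Tmsb4x, H19, Kctd14 and Cdkn1c and at its low end by Rhox5, Dppa5a, Dppa3 and Hsp90aa1. The second set replication histones, Hist1h2ap, Hist1h1b and Hist1h1e with Slbp, against Cks2, Cenpf, Ube2c, Cdc20 and Ccnb1. The third set Dazl, Hist1h2ap, Hells and Ddx4 against Hmgn5, Mt1, Mt2, Cks2 and Dppa5a. Across germ cells the first component had an r of 0.43 with the summed supporting, interstitial and mesothelial markers. The second had an r of -0.74 with the G2 and mitosis list. The third had an r of 0.52 with the S phase list and of -0.45 with total UMIs, so it also followed depth.

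The last contrast was followed along Dazl itself, in 4 classes of 167 germ cells ordered by Dazl UMIs of 9000 (0 to 1, 1 to 2, 2 to 4 and 4 to 16); the genes shown were picked after their values had been seen. Dazl stood at 73.2, 181, 301 and 553 CPM by construction. Sycp1 stood at 5.79 CPM (3.88 to 8.31) in the lowest and 31.0 CPM (26.2 to 36.3) in the highest class, with 13.9 and 19.8 CPM between. Sycp3 did not rise in order, with 25.9, 20.6, 25.1 and 31.4 CPM and overlapping intervals in the lowest and highest class. Zglp1 stood at 42.9, 54.7, 67.1 and 90.2 CPM, Ddx4 at 58.1, 73.9, 99.4 and 133 CPM, Smc1b at 112, 135, 180 and 193 CPM, and Hells at 485, 594, 639 and 750 CPM. Mt1 ran from 334 to 107 CPM, Mt2 from 623 to 322 CPM and Hmgn5 from 385 to 248 CPM. Dppa3, at 772, 745, 720 and 754 CPM, and Pou5f1, at 152, 147, 143 and 135 CPM, varied less. The summed meiosis list stood at 757, 811, 911 and 1046 CPM, and the pluripotency list at 1654, 1612, 1522 and 1495 CPM. The classes were of like depth, with medians of 28470, 27053, 30197 and 27938 UMIs. They differed in Xist, which stood at 113, 136, 75.02 and 61.1 CPM, with intervals apart between the lowest and the highest class. Whether this difference bears on the other genes was not tested. The S phase list stood at 3829, 4251, 4321 and 4809 CPM and the G2 and mitosis list at 4782, 4539, 4977 and 4905 CPM, so S phase transcripts moved along with Dazl and mitosis transcripts showed no order.

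**Figure D5:**
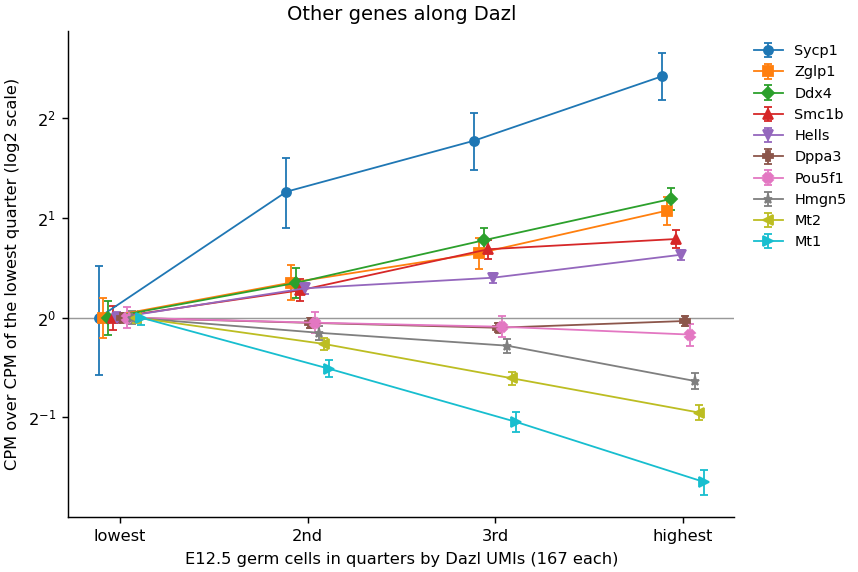
CPM in 4 classes of 167 E12.5 germ cells ordered by Dazl UMIs, divided by the CPM of the lowest class (log2 axis), with bars for exact 95% Poisson intervals of each count. Sycp1 runs from 5.79 to 31.0 CPM and Mt1 from 334 to 107 CPM, while Dppa3 and Pou5f1 stay near the line at 1.

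The same genes are given side by side over the stages. Sycp1 stood at 5.03, 17.5, 61.0 and 429 CPM in germ cells from E11.5 to E14.5, Hmgn5 at 400, 325, 109 and 32.4 CPM, Mt1 at 220, 210, 104 and 55.9 CPM and Mt2 at 478, 469, 290 and 91.0 CPM. In comparison cells Mt1 went the other way over the stages, with 103, 190, 266 and 636 CPM.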

How the data were processed

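Single-cell libraries of XX gonads (10x Chromium 3′ kit, version 2) were processed with Cell Ranger 2.2.0 and mm10, per the submitters' processing notes. Each deposited value is on a natural log scale; read from the values themselves, it is ln(1 + x), where x scales a cell's UMIs to a sum of 10000. All 69792436 values above 0 (100%) were whole multiples of the smallest of their cell (relative tolerance 1e-06), so UMI counts were recovered and used in the planned sums. In all 4 libraries UMIs were summed over cells as CPM; no count model was fitted. The rule of size (50 UMIs, 20 CPM, ratio 4, intervals apart, a floor of 3 UMIs for a count of 0) was run on simulated counts of 19321 genes. Of 200 genes changed 8-fold it found 100% for germ cells against comparison cells and 97.5% for E12.5 against E11.5, with 0 unchanged genes called. The simulated counts varied by Poisson sampling only, without spread between cells or libraries, and the change exceeded the ratio asked. High recovery was therefore built in, and the simulation says nothing of differences between libraries. Chromosomes came from RefSeq for 93.6% of symbols. Python 3.11.15, scipy 1.17.1 and scanpy 1.11.5 (Scrublet, seed 1) were used. Named were the rule genes, genes of 25 lists, the largest and smallest ratios (30 and 15 against comparison cells, 15 each way between stages), the 20 largest Fano factors and 10 genes at each end of 3 components; others were named after their values were seen. The cells and lists were chosen with earlier results of these data known. Of the genes so named, 1 is not reported here.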

Additional observations from a re-analysis of the deposited data

How the results depend on the processing

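No paired analysis was possible because each stage is 1 library and the labels give no replicate numbers, and for the same reason no replicate could be left out. Of 91 recomputed values of the main results above, 55 moved by less than their own counting interval or 1.5 times and 36 by more, and 0 reversed. Other values were recomputed too, mostly log2 ratios and shares of cells for single genes. Of these, 187 stayed within that bound and 86 moved by more. The log2 ratio of Dppa3 ranged from 4.43 to 7.75 over the settings and that of Top2a from 0.68 to 1.03. Requiring 4 of the 6 genes gave a germ cell share of 12.45%, an S phase log2 ratio of 0.87 and an X-linked share of 3.42%. Requiring all 6 gave 3.35%, 27 genes between E11.5 and E12.5 (main count 4), log2 ratios of 0.90 (S phase), 1.03 (G2 and mitosis) and 2.48 (meiosis), and an X-linked share of 3.43%. Reading the rule after thinning gave 8.26%, log2 ratios of 0.88 (S phase), 2.25 (meiosis) and 3.45 (pluripotency), and an X-linked share of 3.44%; its comparison cells then hold some of the 668 germ cells. Leaving out called doublets gave 0.96 for G2 and mitosis. Germ cells with fewer UMIs than the median gave 10 genes between E12.5 and E13.5, 0.99 (S phase), 0.81 (G2 and mitosis) and an X-linked share of 3.37%. Against all other E12.5 cells the ratios were 0.92 (G2 and mitosis), 2.29 (meiosis) and 3.85 (pluripotency), and against cells with 0 of the 6 genes 0.96 (G2 and mitosis). Weighting each cell equally gave 0.92 (S phase) and 1.11 (G2 and mitosis), and median-of-ratios scaling 1.03, 1.12, 2.55 (meiosis) and 4.43 (pluripotency). Without a CPM minimum 3903 genes differed from comparison cells (771 higher, 3132 lower), 28 between E11.5 and E12.5 and 75 between E12.5 and E13.5. A ratio of 2 gave 2638, 116 and 71. Thinning to 5000 UMIs left 32 genes with a Fano factor of at least 2, against 72. Leaving out the 17 cells rich in somatic markers, chosen after seeing the data, moved none of the main results past its bound (1218 genes in place of 1196, and 61 genes with a Fano factor of at least 2). Leaving out comparison cells without Xist, also chosen then, left their X-linked share at 3.65%. Genes under the minimums were not described as absent.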

Other observations

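In the E12.5 library 205 comparison cells (5.15%) held no Xist UMI, against 0.42%, 0.24% and 0.15% of comparison cells at E11.5, E13.5 and E14.5. Their median depth was 11619 UMIs, near the 12222 UMIs of the other comparison cells. They held 0 UMIs of the Y-linked genes, and Tsix, the antisense gene of Xist, stood at 3.50 CPM against 45.4 CPM in the comparison cells with Xist. Their X-linked share, without Xist and Tsix, was 3.70% (3.68 to 3.73), against 3.65% (3.64 to 3.65). Since germ cells hold little Xist, cells of the same kind could not be looked for among the 668 germ cells.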
